A study of Mus musculus with 9 samples.

Results

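Immortalized mouse embryonic fibroblasts (MEFs) of the ICR strain received a short hairpin RNA (shRNA) against HSF1, an shRNA against RPA1 or a scrambled shRNA, and the 6 arrays of both knockdowns were set together against the 3 arrays of the scrambled control. The shRNAs came in adenovirus, so the control cells carried a virus and a hairpin too: all 9 samples took up 1e8 pfu per ml of virus for 2 h and were grown for 70 h more at 37 °C in medium with 10% serum before 200 ng of RNA was labelled for Affymetrix Mouse Gene 1.0 ST arrays. A gene was called separated when all 6 knockdown arrays lay above all 3 control arrays, or all 6 lay below them. Of 19938 genes, 4234 were separated (21.2% of the genes), 2536 of them higher (12.7%) and 1698 lower (8.52%) in the knockdown arrays. The separated genes were ranked by the smaller of the HSF1 and RPA1 differences from control, so a gene stood high only if both knockdowns moved it. Both knockdowns were measured against the same 3 control arrays, so anything that set those 3 arrays apart and an effect common to both shRNAs cannot be told apart here. Nothing in the labels ties the 3 arrays of a group to independent cultures, and the p-values refer to the scatter among these arrays, which may be technical.

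HSF1 (heat shock factor 1) is the main transcription factor of the heat shock response and binds inverted repeats of a short GAA unit, called heat shock elements, near chaperone genes. RPA1 is the large subunit of replication protein A, the trimer that coats single-stranded DNA during replication and repair. The series concerns genes regulated by HSF1 together with RPA, and the pooled comparison asks which transcripts both hairpins moved away from the control in the same direction. Fibroblasts are also cells that sense foreign nucleic acid: double-stranded RNA in the cytosol switches on interferon genes and, through the factors they feed, interferon-stimulated response elements in target promoters.

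The target of one hairpin could be checked. Rpa1 measured 11.40, 11.42 and 11.41 in the control arrays, 11.35, 11.33 and 11.30 with HSF1 shRNA and 9.42, 9.34 and 9.40 with RPA1 shRNA, on the log2 scale used for every level below. With RPA1 shRNA, Rpa1 fell by 2.02 ± 0.04 (difference ± standard error, SE, from limma, a linear model with moderated variances fitted to all genes, n = 3 arrays per group). HSF1 shRNA left Rpa1 at a difference of -0.08 ± 0.04, below all controls but by little, so Rpa1 counted as separated although only 1 knockdown moved it far. Hsf1 was not analysed here.

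The separation was common among well-measured genes. When genes were split into 4 equal classes by mean signal, 4.03% of the dimmest class were separated higher and 1.08% lower, against 21.4% and 14.5% of the brightest class. The size was small for most: the median of the smaller difference was 0.21 for genes higher and 0.24 for genes lower. A 1.5-fold difference in both knockdowns was reached by 146 genes higher (0.732% of all genes) and 139 lower (0.697%), and a 2-fold difference by 27 higher and 31 lower. Limma's contrast of the mean of both knockdowns against control called 2685 genes higher (13.5%) and 2180 lower (10.9%) at a Benjamini-Hochberg adjusted p under 0.05, and those calls are what "rose" and "fell" mean below. A model with 1 mean for all 6 knockdown arrays, in which any difference between the knockdowns counts as noise, called 2326 in place of 4865. An exact permutation test of 6 arrays against 3 gives every separated gene the same two-sided p of 0.0238, the smallest it allows. The excess of higher over lower genes depended on the scaling: after quantile normalization 2234 genes were separated higher and 2384 lower, after median centring 2088 and 2140, and after cyclic loess 2170 and 2346. For limma's pooled calls the same 3 scalings gave 2625 and 2503, 2542 and 2471, and 2509 and 2522.

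The strongest shared increase was that of Il6, the cytokine interleukin 6. Il6 measured 6.32, 6.69 and 6.86 in the control arrays, 8.97, 8.94 and 8.70 with HSF1 shRNA and 8.16, 7.58 and 9.21 with RPA1 shRNA. The RPA1 arrays spread over a wide range, yet the lowest of them stood clear of the highest control. The first rank of Il6 rests on the mean of the RPA1 arrays, which replicate 3 raised. The differences were 2.25 ± 0.33 with HSF1 shRNA and 1.69 ± 0.33 with RPA1 shRNA. Tmem171, a little-studied membrane protein gene, rose from 8.26, 8.40 and 8.33 to 9.87, 9.90 and 9.99 with HSF1 shRNA and to 9.72, 9.83 and 10.79 with RPA1 shRNA. Ccl17, a chemokine that attracts T cells, had control arrays at 8.87, 8.93 and 8.77, HSF1 arrays at 10.40, 10.26 and 10.33 and RPA1 arrays at 10.49, 10.36 and 10.23. Its 3 HSF1 and 3 RPA1 values overlapped each other and stood more than 1 above every control value.

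Among the 12 genes with the largest shared increases, 4 belonged to the interferon response (Oas2, Rsad2, Usp18 and Zbp1) and 3 coded for cytokines or chemokines (Il6, Ccl17 and Ccl20). C3ar1, the receptor for the complement fragment C3a, lay at 6.39 ± 0.10 in control arrays (mean ± SD, n = 3) and rose by 1.81 ± 0.14 with HSF1 shRNA and 1.46 ± 0.14 with RPA1 shRNA. Fosl1, which codes for the AP-1 subunit FRA1, rose from 9.61, 9.63 and 9.67 to 10.80, 10.80 and 10.93 with HSF1 shRNA and to 11.48, 11.46 and 11.59 with RPA1 shRNA. The 3 groups of Fosl1 values did not overlap, and RPA1 shRNA gave the larger step. H2bc4, a histone H2B gene of the replication-dependent clusters, rose by 1.22 ± 0.14 and 1.79 ± 0.14. The transcript U90926 rose by 1.29 ± 0.15 and 1.94 ± 0.15.

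**Figure D1:**
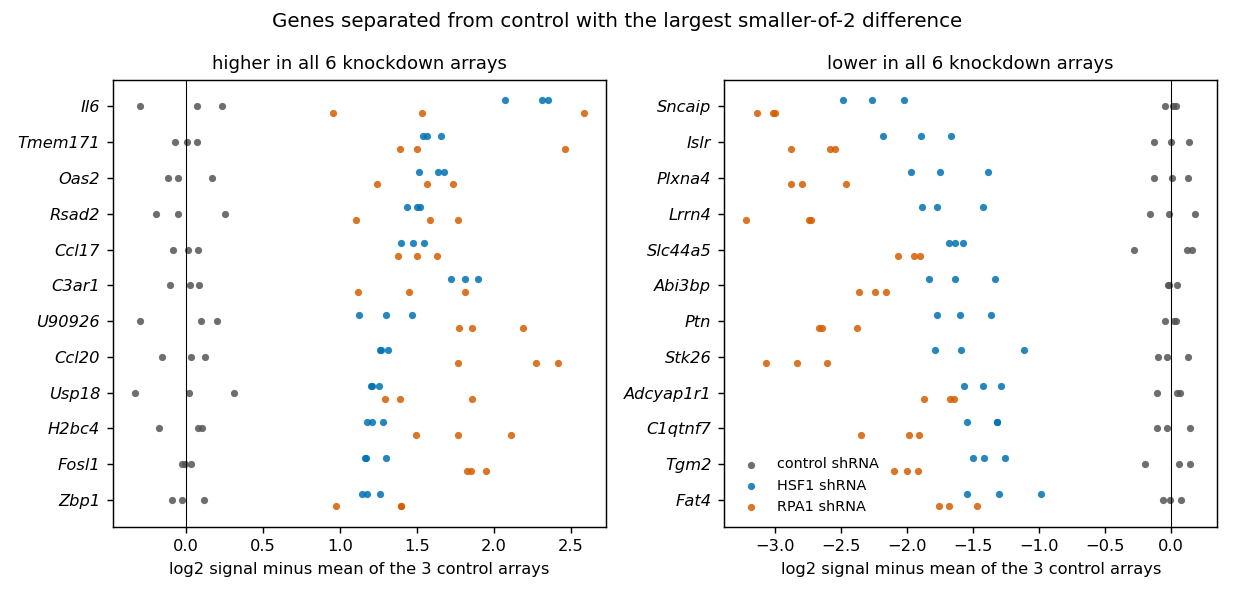
Each point is 1 array, plotted as its log2 signal minus the mean of the 3 control arrays, for the 12 genes with the largest shared increase (left) and decrease (right). No knockdown point lies among the control points of its gene; in the right panel the RPA1 shRNA points of most genes lie farther from control than the HSF1 shRNA points.

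The strongest shared decrease was that of Sncaip, which codes for synphilin-1, a partner of alpha-synuclein. Sncaip measured 9.54, 9.56 and 9.48 in the control arrays, 7.51, 7.27 and 7.05 with HSF1 shRNA and 6.52, 6.54 and 6.40 with RPA1 shRNA, which put it 6.29-fold lower over both knockdowns. The control arrays lay within 0.1 of each other while every HSF1 array lay at least 1.975 below the lowest control, and the RPA1 arrays lower still. Islr, a secreted leucine-rich repeat protein of mesenchymal cells, fell from 11.06, 10.92 and 10.79 to 9.26, 9.04 and 8.75 with HSF1 shRNA and to 8.39, 8.34 and 8.05 with RPA1 shRNA. Plxna4, a plexin that receives semaphorin signals, fell by 1.70 ± 0.15 with HSF1 shRNA and fell by 2.71 ± 0.15 with RPA1 shRNA. Ptn, the heparin-binding growth factor pleiotrophin, fell from 11.20, 11.19 and 11.12 to 9.81, 9.57 and 9.40 with HSF1 shRNA and to 8.52, 8.50 and 8.79 with RPA1 shRNA. The other genes in the lower 12 were Lrrn4, Slc44a5, Abi3bp (a matrix protein), Stk26 (a kinase), Adcyap1r1 (the receptor for the peptide PACAP), C1qtnf7, Tgm2 (transglutaminase 2, which crosslinks proteins) and Fat4 (an atypical cadherin). Their pooled differences ran from -2.30 ± 0.14 for Lrrn4 to -1.46 ± 0.11 for Fat4. These leading genes were chosen by the same values, so the values describe them and test nothing.

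Genes of the type I interferon response had the largest share separated higher among the function lists. Of 40 measured, 35 were separated higher and 0 lower, and the same number rose by limma's test with 0 falling; the median difference was 0.82, against 0.03 over all genes. Each list count reads against the 12.7% of genes that were separated higher and the 8.52% lower. For every list, separation and limma's pooled test set the same arrays against each other, so these counts are not independent. The lists were also chosen with earlier results of these data known. By limma's test 34 to 36 members rose when any 1 array was left out. Under each of the 3 other scalings 35 were separated higher. Rsad2, whose product viperin blocks viral replication, measured 9.74, 9.89 and 10.19 in the control arrays, 11.37, 11.44 and 11.46 with HSF1 shRNA and 11.52, 11.05 and 11.71 with RPA1 shRNA. Oas2, a synthase that activates RNase L when it meets double-stranded RNA, rose by 1.61 ± 0.12 and 1.51 ± 0.12. Usp18, which removes ISG15 from proteins and damps interferon signalling, rose by 1.22 ± 0.17 and 1.51 ± 0.17. Zbp1, a sensor of nucleic acids in the Z form, rose by 1.19 ± 0.11 and 1.26 ± 0.11.

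Sensors and transcription factors of the pathway were among the members that rose. Ifih1, which codes for the double-stranded RNA sensor MDA5, rose by 0.87 ± 0.10 over both knockdowns, Irf7 by 0.91 ± 0.13 and Stat2 by 0.76 ± 0.08, Irf7 and Stat2 being transcription factors of the pathway. Only 5 members were not separated, namely Ube2l6, Ifnb1, Ifit2, Mx1 and Iigp1. Ifnb1, the interferon beta gene, measured 6.07, 6.09 and 6.05 in control arrays, 6.14, 6.24 and 5.89 with HSF1 shRNA and 6.06 at the median of the RPA1 arrays, a pooled difference of 0.02 ± 0.10 at a level among the dim genes of the array. Ifit2 parted the knockdowns: it lay 0.36 ± 0.06 above control with HSF1 shRNA and 0.29 ± 0.06 below it with RPA1 shRNA. Control replicate 3 gave the highest of the 3 control values for Rsad2, Oas2, Usp18 and Zbp1, and control replicate 1 the lowest.

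Of 28 interferon genes with a promoter window, 16 carried the core of the response element, and the genes shown here were picked from carriers. Stretches of 74 to 90 bases upstream of the start site follow for 4 genes of the list and for Ddx60 and Cd274, 5′ to 3′ on the gene's strand, from RefSeq on mouse build GRCm38.p6. Capitals mark the core of the interferon-stimulated response element, GAAANNGAA, on either strand.
Rsad2 (chr12:26456512-26456601, minus strand): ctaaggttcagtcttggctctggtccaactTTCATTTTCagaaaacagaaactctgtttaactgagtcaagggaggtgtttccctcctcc
Ifit1 (chr19:34640750-34640839, plus strand): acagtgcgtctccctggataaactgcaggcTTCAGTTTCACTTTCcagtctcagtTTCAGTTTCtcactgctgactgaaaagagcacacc
Ddx60 (chr8:61928004-61928086, plus strand): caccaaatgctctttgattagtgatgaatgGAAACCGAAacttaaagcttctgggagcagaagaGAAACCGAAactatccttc
Gbp3 (chr3:142559970-142560043, plus strand): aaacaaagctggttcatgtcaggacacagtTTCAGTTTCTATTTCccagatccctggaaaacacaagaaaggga
Gbp7 (chr3:142530254-142530335, plus strand): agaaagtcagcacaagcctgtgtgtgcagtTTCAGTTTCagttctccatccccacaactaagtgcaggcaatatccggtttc
Cd274 (chr19:29367332-29367421, plus strand): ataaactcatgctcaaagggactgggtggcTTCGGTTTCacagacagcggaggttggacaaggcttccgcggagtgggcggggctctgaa
The stretch of Ifit1 holds 3 matches, 2 of them overlapping, and those of Ddx60 and Gbp3 hold 2 each. The core lay 44 to 119 bases before the start site in these 6. All 6 genes rose. Besides Rsad2, Ifit1, an inhibitor of viral RNA translation, rose by 1.00 ± 0.12, the helicase gene Ddx60 by 1.37 ± 0.13, the guanylate-binding GTPase genes Gbp3 and Gbp7 by 0.96 ± 0.12 and 0.99 ± 0.13, and Cd274, which codes for the immune checkpoint ligand PD-L1, by 1.07 ± 0.07. Ddx60 and Cd274 were chosen for display after their values were seen.

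The motif was counted in all promoter windows, each from 250 bases before to 50 after a start site, with 19177 windows for 15614 of the genes. The interferon core was present in 53.1% of the windows of the interferon list (17 of 32) and in 7.84% of all windows. Among genes at least 1.5-fold higher it was present in 22.2% of windows, and in 15.9% once the interferon list was taken out. Among genes at least 1.5-fold lower it was present in 15.6%, so the lower genes also carried it more often than all genes. The core of the heat shock element, GAANNTTC, was present in 34.1% of the windows of heat shock protein genes, in 6.94% of those of genes at least 1.5-fold higher and in 6.72% of all windows. The shared increases and all genes thus carried this core at nearly the same share. The AP-1 site TGANTCA was present in 14.6% of windows of genes at least 1.5-fold higher, against 6.9% of all windows, and the NF-kB half-site GGANTTTCC in 4.86% against 1.34%. The core TATA sequence TATAAA was present in 21.5% against 11.5%. All motifs were read on both strands, matches of different motifs may overlap, and a match is a stretch of letters, not a site shown to be bound.

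**Figure D2:**
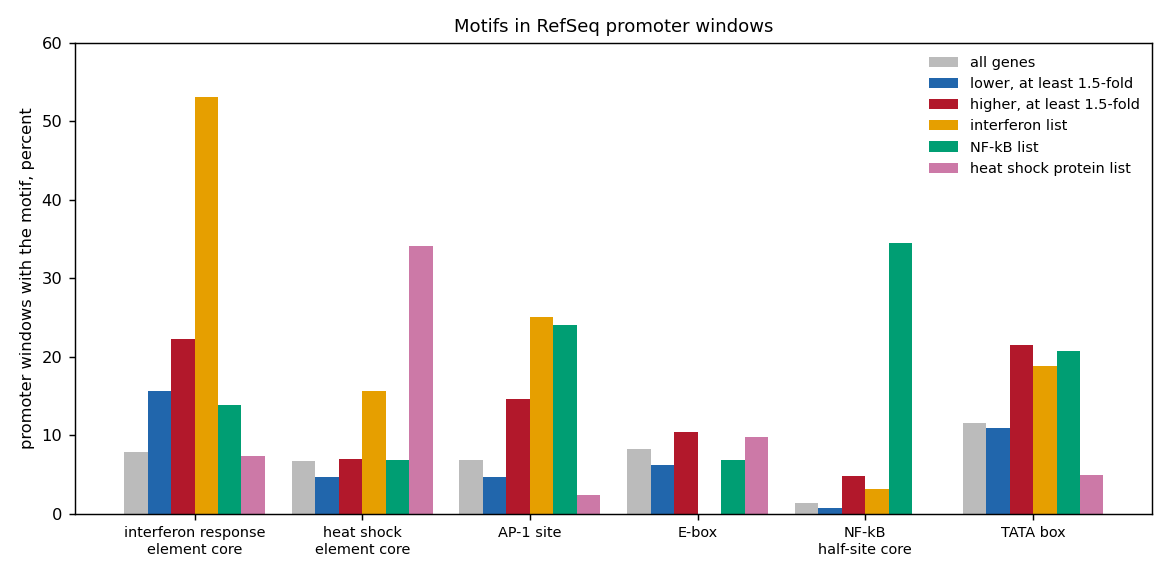
Bars give the percentage of RefSeq promoter windows (y axis) that hold each of 6 motifs (x axis) for 6 sets of genes, all genes in grey. The interferon core stands out in the interferon list at 53.1% and the heat shock core in the heat shock protein list at 34.1%; genes at least 1.5-fold higher sit at 22.2% for the first and near all genes, 6.94% against 6.72%, for the second.

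Inflammatory genes rose in part. Of 34 genes for NF-kB subunits, their feedback inhibitors and inflammatory products, 19 were separated higher and 2 lower, 19 rose and 2 fell, and the median difference was 0.34. With 1 mean for all 6 knockdown arrays, 12 members rose. Ccl20, the ligand of the chemokine receptor CCR6, measured 7.74, 8.03 and 7.93 in control arrays, 9.22, 9.17 and 9.16 with HSF1 shRNA and 10.17, 10.32 and 9.67 with RPA1 shRNA. Ptgs2, which codes for the prostaglandin enzyme COX-2, rose by 1.11 ± 0.18 and 1.66 ± 0.18, with RPA1 replicate 3 the highest array at 11.72. The chemokine genes Cxcl10, Ccl5, Ccl7 and Ccl2 rose by 0.99 ± 0.12, 0.92 ± 0.14, 0.81 ± 0.10 and 0.75 ± 0.07. Rela, the p65 subunit, rose by 0.39 ± 0.05, and Tnfaip3, the feedback inhibitor A20, by 0.76 ± 0.04, while Nfkbia, the inhibitor IkB-alpha, differed by -0.14 ± 0.05 without passing the test, but passed under quantile normalization, median centring and cyclic loess. The 2 members that fell were Saa3, an acute phase protein (-0.78 ± 0.20), and Vcam1, an adhesion molecule (-0.31 ± 0.06). Saa3 lost its call when any 1 control array was left out, with limma's adjusted p of 0.056 to 0.069. The number that fell was 4 under each of the 3 other scalings.

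The letters of the Il6 promoter hold a match to the NF-kB motif. Those of Plaur, the urokinase receptor gene, hold an AP-1 site. Each match is in capitals in the upstream stretch from the same RefSeq build, gene strand.
Il6 (chr5:30013041-30013113, plus strand): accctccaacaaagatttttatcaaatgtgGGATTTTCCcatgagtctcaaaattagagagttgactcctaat
Plaur (chr7:24462384-24462473, plus strand): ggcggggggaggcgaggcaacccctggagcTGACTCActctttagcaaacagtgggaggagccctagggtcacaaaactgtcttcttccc
Plaur rose by 1.14 ± 0.16 with HSF1 shRNA and 1.19 ± 0.16 with RPA1 shRNA and was chosen for display after its values were seen.

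Immediate early factors rose as well, Fosl1 among them. Of 20 genes for AP-1 and other immediate early factors, 10 were separated higher and 1 lower, 12 rose and 0 fell, and the median was 0.29. The small MAF genes Maff and Mafk, partners of AP-1 and NRF2, rose by 1.03 ± 0.05 and 0.91 ± 0.05. Maff measured 7.91, 8.04 and 8.01 in control arrays, 8.79, 8.86 and 8.83 with HSF1 shRNA and 9.11, 9.23 and 9.26 with RPA1 shRNA, 3 ranges that did not meet. Fosb rose by 0.61 ± 0.11. Ier2 was the member separated lower, at -0.16 ± 0.05, without passing the test. With 1 mean for all 6 knockdown arrays, 7 members rose.

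Genes for ribosome assembly had the next largest share separated higher. Of 27 genes, 22 were separated higher and 1 lower, 20 rose and 0 fell, and the median was 0.32. Rrp9, a component of the U3 small nucleolar ribonucleoprotein that processes ribosomal RNA, measured 9.65, 9.66 and 9.53 in control arrays, 10.22, 10.08 and 10.16 with HSF1 shRNA and 10.47, 10.54 and 10.69 with RPA1 shRNA. Tsr1, needed for the small subunit, rose by 0.58 ± 0.10, and Bop1 and Wdr75, which act in the maturation of the large and small subunits, rose by 0.51 ± 0.06 and 0.40 ± 0.07. Nop2, Ddx21 and Fbl rose by 0.45 ± 0.04, 0.49 ± 0.06 and 0.33 ± 0.04. The member separated lower was Ubtf, a factor of RNA polymerase I, at -0.10 ± 0.05 and not past the test. Myc, a transcription factor known to drive this group, was on the immediate early list and rose by 0.35 ± 0.07 with HSF1 shRNA and 0.84 ± 0.07 with RPA1 shRNA. The E-box CACGTG was present in 18.8% of the windows of the list, 6 of 32, against 8.24% of all windows. In the windows of all genes separated higher its share was 11.5%. The part of Myc in these increases was not tested.

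Among chaperone genes the differences were small. Of 36 genes for cytosolic heat shock proteins and co-chaperones, 12 were separated higher and 1 lower, 13 rose and 1 fell, and the median was 0.11. Without control replicate 3, 8 rose, and 0 fell without any 1 control or HSF1 array. Hsph1, the HSP110 nucleotide exchange factor, measured 10.40, 10.37 and 10.23 in control arrays, 10.64, 10.60 and 10.81 with HSF1 shRNA and 10.87, 10.84 and 11.22 with RPA1 shRNA. Zfand2a, an arsenite- and heat-inducible proteasome adaptor, rose by 0.44 ± 0.04, Bag1, a co-chaperone of HSP70, by 0.41 ± 0.05, and Hsp90aa1, the inducible HSP90 gene, by 0.30 ± 0.04. The stress-inducible Hspa1a differed by 0.09 ± 0.08 and Dnajb1, its partner, by 0.17 ± 0.08, and neither passed the test. Dnajb1 did pass without RPA1 replicate 3 (limma adjusted p = 0.013) and with array weights (limma adjusted p = 0.01). Hspa8, the constitutive HSC70 gene, was separated lower by only 0.05 ± 0.04 and did not pass. The 4 other heat shock factors measured had 0 separated members, and 1 of them, Hsf2, passed the test at 0.16 ± 0.05. Hsf2 lost that call in 7 of 9 fits that left out 1 array, with the replicate block and with 1 mean for all 6 knockdown arrays, with limma's adjusted p between 0.055 and 0.17.

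Proteasome and endoplasmic reticulum lists had more members higher than lower. Of 31 proteasome subunit genes, 11 were separated higher and 0 lower, 11 rose and 0 fell, with a median of 0.14. Psmd12 and Psmd13, of the regulatory particle, rose by 0.39 ± 0.06 each. Of 25 genes for endoplasmic reticulum chaperones and the unfolded protein response, 14 were separated higher and 3 lower, and 13 rose and 5 fell. Dnajb11, a co-chaperone of the HSP70 member BiP, measured 9.95, 9.98 and 9.98 in control arrays, 10.35, 10.37 and 10.38 with HSF1 shRNA and 10.55, 10.54 and 10.49 with RPA1 shRNA. Hyou1, Dnajc3 and Creld2 rose by 0.39 ± 0.04, 0.42 ± 0.04 and 0.36 ± 0.04. The 3 separated lower were Trib3, Herpud1 and Atf4, at -0.60 ± 0.09, -0.39 ± 0.07 and -0.18 ± 0.04. The number that fell was 3 without control replicate 1 or 3 and 2 with 1 mean for all 6 knockdown arrays.

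The amino acid list had members lower and 0 higher. Of 21 genes for amino acid transport and other targets of the factor ATF4, 10 were separated lower and 0 higher, 11 fell and 0 rose, and the median was -0.17. Without control replicate 1 or 3, 7 fell, and with 1 mean for all 6 knockdown arrays, 4. Slc7a5, the large neutral amino acid transporter LAT1, measured 13.36, 13.41 and 13.40 in control arrays, 12.83, 12.73 and 12.54 with HSF1 shRNA and 13.07, 13.13 and 13.08 with RPA1 shRNA. Here HSF1 shRNA gave the larger step. Slc1a5, a glutamine transporter, fell by 0.41 ± 0.06, and Vldlr, a lipoprotein receptor, fell by 0.81 ± 0.08.

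More DNA replication genes fell than rose. Of 44 DNA replication genes, 17 were separated lower and 3 higher, 19 fell and 4 rose, and the median was -0.13. Without control replicate 2, 12 fell, without any 1 control array 1 rose, and with 1 mean for all 6 knockdown arrays 10 fell and 2 rose. Pold1, the catalytic subunit of DNA polymerase delta, measured 10.10, 10.21 and 10.10 in control arrays, 9.63, 9.76 and 9.52 with HSF1 shRNA and 9.66, 9.76 and 9.65 with RPA1 shRNA, so the knockdown ranges overlapped each other and not the controls. Rnaseh2a, which removes ribonucleotides from DNA, fell by 0.41 ± 0.06, Pole, of polymerase epsilon, by 0.32 ± 0.06, Mcm7, of the replicative helicase, by 0.28 ± 0.06, and Pcna, the sliding clamp, by 0.20 ± 0.04. Those separated higher were Fen1, Orc2 and Orc5, at 0.23 ± 0.06, 0.19 ± 0.05 and 0.10 ± 0.06, of which Orc5 did not pass the test and Fen1 and Orc2 lost their call without 1 control array.

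Of 15 genes for RPA subunits and checkpoint partners, 4 were separated lower, namely Rpa1, Rpa2, Timeless and Tipin, and 4 fell, or 2 with 1 mean for all 6 knockdown arrays; Rpa2 fell by 0.24 ± 0.04 and Timeless, of the fork protection complex, by 0.31 ± 0.06. Tipin, its partner, differed by -0.20 ± 0.08 and did not pass, but passed without RPA1 replicate 3 (adjusted p = 0.001 by limma). Of 40 mitotic genes, 8 were separated lower and 2 higher and 13 fell and 1 rose, while 8 fell without control replicate 1 and 6 with 1 mean for all 6 knockdown arrays; Cdc25b, the phosphatase that starts mitosis, fell by 0.52 ± 0.07 while the kinase gene Aurka rose by 0.28 ± 0.05. Of 33 DNA damage and repair genes, 5 were separated lower and 2 higher and 10 fell and 3 rose. These counts moved with single arrays: 1 rose in 8 of 9 fits that left out 1 array and 5 rose without RPA1 replicate 3, while 5 fell without control replicate 3 and 6 without control replicate 2. With 1 mean for all 6 knockdown arrays 0 rose and 1 fell, and 13 members were separated lower without HSF1 replicate 1, 9 without control replicate 1 and 10 or 11 under the other scalings. Of 26 chromatin genes, 8 were separated lower and 1 higher and 8 fell and 2 rose, with Smarca1, a chromatin remodelling ATPase, at 8.23, 8.14 and 8.11 in control arrays, 7.51, 7.10 and 7.12 with HSF1 shRNA and 5.67, 6.24 and 6.64 with RPA1 shRNA.

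Matrix genes had the largest share separated lower among the function lists. Of 53 extracellular matrix genes, 29 were separated lower and 6 higher, 29 fell and 5 rose, and the median was -0.29. With 1 mean for all 6 knockdown arrays, 18 fell. Fmod, the collagen-binding proteoglycan fibromodulin, measured 11.28, 11.30 and 11.20 in control arrays, 10.27, 10.05 and 9.89 with HSF1 shRNA and 7.95, 8.03 and 8.90 with RPA1 shRNA. Tnc, the adhesion-modulating glycoprotein tenascin-C, measured 12.59, 12.45 and 12.48, then 11.57, 11.50 and 11.34, and 11.41, 11.37 and 11.36 in the same order. Fmod fell far more with RPA1 shRNA, while Tnc fell by 1.04 ± 0.07 and 1.13 ± 0.07 and its knockdown arrays nearly coincided. The fibrillar collagen genes Col1a2 and Col3a1 fell by 0.78 ± 0.11 and 0.45 ± 0.06, the crosslinking enzyme gene Lox by 1.29 ± 0.23 and the microfibril genes Mfap4 and Fbn2 by 1.17 ± 0.06 and 1.01 ± 0.10. The members that rose included Mmp13, the collagenase 3 gene, Thbs1, the adhesive glycoprotein thrombospondin-1, and Col4a1 and Col4a2, the basement membrane collagens. Mmp13 measured 7.31, 7.27 and 7.27 in control arrays, 8.76, 8.70 and 8.60 with HSF1 shRNA and 7.73, 8.05 and 8.28 with RPA1 shRNA.

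Growth factor genes split. Of 51 genes for growth factor ligands, receptors and their secreted binding proteins, 23 were separated lower and 10 higher, 23 fell and 13 rose, and the median was -0.19. The Wnt antagonists Sfrp2 and Sfrp1 fell by 1.26 ± 0.12 and 1.09 ± 0.07, and the insulin-like growth factor genes Igf2, Igfbp3 and Igfbp4 by 1.19 ± 0.08, 1.09 ± 0.06 and 1.03 ± 0.07. Sfrp1 measured 12.74, 12.76 and 12.84 in control arrays, 11.79, 11.72 and 11.64 with HSF1 shRNA and 11.86, 11.64 and 11.49 with RPA1 shRNA. Ereg and Hbegf, which code for 2 ligands of the EGF receptor, rose by 0.95 ± 0.12 and 0.92 ± 0.17; the other ligands of that receptor were not counted as a group. Kitl, the ligand of the receptor KIT, rose by 0.67 ± 0.05 and Grem1, an antagonist of bone morphogenetic proteins, by 0.74 ± 0.04. Of 31 semaphorin, plexin and neuropilin genes, 9 were separated lower and 3 higher and 11 fell and 6 rose, with Sema6c at -0.95 ± 0.08 and Sema6d at -0.89 ± 0.07; 7 fell when any control array was left out, 3 rose without control replicate 2 or 3, and 0 rose with 1 mean for all 6 knockdown arrays.

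Fibroblast markers were lower beside the matrix genes, with some genes on both lists. Of 12 fibroblast markers, 7 were separated lower and 3 higher and 8 fell and 1 rose (4 fell with 1 mean for all 6 knockdown arrays), and their mean level was 11.05 to 11.11 in the control arrays, 10.9 to 10.99 with HSF1 shRNA and 10.47 to 10.67 with RPA1 shRNA. Pdgfra, the PDGF receptor alpha, measured 10.49, 10.45 and 10.34 in control arrays, 9.65, 9.55 and 9.38 with HSF1 shRNA and 8.72, 8.72 and 8.73 with RPA1 shRNA. Vim, the vimentin gene, stayed near 14 in all arrays, with a difference of 0.09 ± 0.04, and Thy1 differed by 0.15 ± 0.06; S100a4 rose by 0.80 ± 0.15. In bulk RNA, fewer cells of a type and less RNA per cell cannot be told apart, and the part of cell composition in the matrix decreases was not tested.

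For other cells most markers were dim. Those at or above the median gene in signal were 0 of 6 endothelial, 0 of 5 adipocyte, 1 of 8 epithelial and 1 of 7 blood and macrophage markers. Of 7 muscle and 6 neural markers, 3 each reached that level. The mean level of the marker lists for epithelial, endothelial, blood, muscle, adipocyte and neural cells lay between 6.64 and 8.6 in every array. Krt14 was the 1 of 8 epithelial markers that rose, Pecam1 the 1 of 6 endothelial markers (0 without control replicate 2 or 3), and 0 of 5 adipocyte markers changed. Of 7 blood and macrophage markers, 2 rose, Csf1r by 0.31 ± 0.06 and Cd68, a lysosomal protein. Cd68 measured 8.41, 8.20 and 8.08 in control arrays, 8.70, 8.72 and 8.70 with HSF1 shRNA and 10.40, 10.61 and 9.84 with RPA1 shRNA; its HSF1 difference of 0.48 ± 0.17 did not pass (limma adjusted p = 0.083), its RPA1 difference was 2.06 ± 0.17, and the direct test between the knockdowns gave 1.58 ± 0.17 (limma adjusted p = 0.00029). With 1 mean for all 6 knockdown arrays Cd68 lost its pooled call; the pan-leukocyte marker Ptprc lay at 5.90 to 6.05 in control arrays and 6.04 to 6.18 in knockdown arrays. Of 7 muscle markers 3 rose, Des by 0.57 ± 0.08, and 1 rose without control replicate 2 or 3 or with 1 mean for all 6 knockdown arrays. Of 6 neural markers 2 rose, Nes (nestin), which measured 10.94 to 11.13 in control arrays and 11.45 to 11.98 in knockdown arrays, by 0.65 ± 0.07 and Tubb3 by 0.42 ± 0.07, and 1 fell, Map2 at -0.19 ± 0.06, a call lost without any 1 control array or HSF1 replicate 2 or 3. The part of other cells in the results was not tested.

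**Figure D3:**
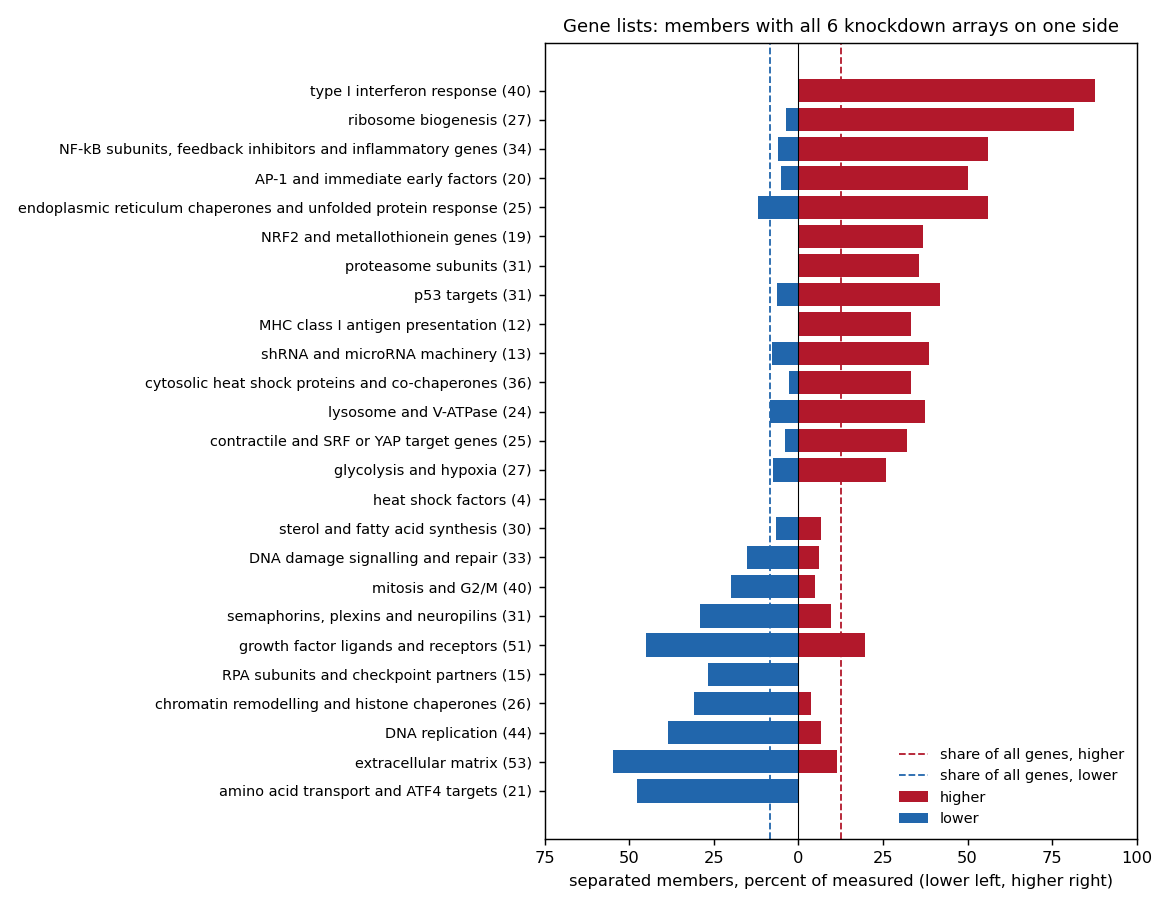
Bars give, for each gene list (number measured in brackets), the percentage of members separated higher (right) and lower (left); dashed lines mark the shares of all genes, 12.7% and 8.52%. The interferon list reaches 87.5% and the ribosome biogenesis list 81.5% on the right; the extracellular matrix list reaches 54.7% and the amino acid list 47.6% on the left.

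Metabolic lists showed mixed changes. Of 27 glycolysis and hypoxia genes, 7 were separated higher and 2 lower, and 9 rose and 1 fell. With 1 mean for all 6 knockdown arrays 5 rose, and without RPA1 replicate 3, 3 fell. The list also parted the knockdowns, with medians of 0.19 with HSF1 shRNA and -0.03 with RPA1 shRNA. In the direct test 15 members lay lower with RPA1 than with HSF1 shRNA and 0 higher, where 24.4% of all genes differed either way. Ldha, Pkm and Pgam1 rose by 0.39 ± 0.05, 0.38 ± 0.05 and 0.39 ± 0.05. Hk2, an inducible hexokinase, measured 8.15, 8.32 and 8.21 in control arrays, 8.95, 9.06 and 8.99 with HSF1 shRNA and 8.51, 8.40 and 8.88 with RPA1 shRNA. Of 19 NRF2 and metallothionein genes, 7 were separated higher and 0 lower and 7 rose and 5 fell, or 2 without control replicate 2 and 0 with 1 mean for all 6 knockdown arrays, with Gpx1 and Srxn1 up by 0.43 ± 0.06 and 0.40 ± 0.05. Of 24 lysosome and V-ATPase genes, 9 were separated higher and 2 lower and 9 rose and 2 fell, or 1 without any 1 control array; the proton pump subunits Atp6v1c1, Atp6v1h and Atp6v1d rose by 0.64 ± 0.06, 0.59 ± 0.06 and 0.55 ± 0.05. Of 13 genes that process hairpins and microRNAs, 5 were separated higher and 1 lower and 5 rose and 2 fell, or 3 rose without control replicate 1 and 5 fell without RPA1 replicate 3. Tarbp2, the partner of Dicer, rose by 0.50 ± 0.07 and Dicer1 by 0.32 ± 0.05. Of 12 genes of MHC class I antigen presentation, 4 were separated higher and 7 rose with 0 falling, or 4 without control replicate 1 or 2; Psmb10, an immunoproteasome subunit, rose by 0.45 ± 0.06.

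**Figure D4:**
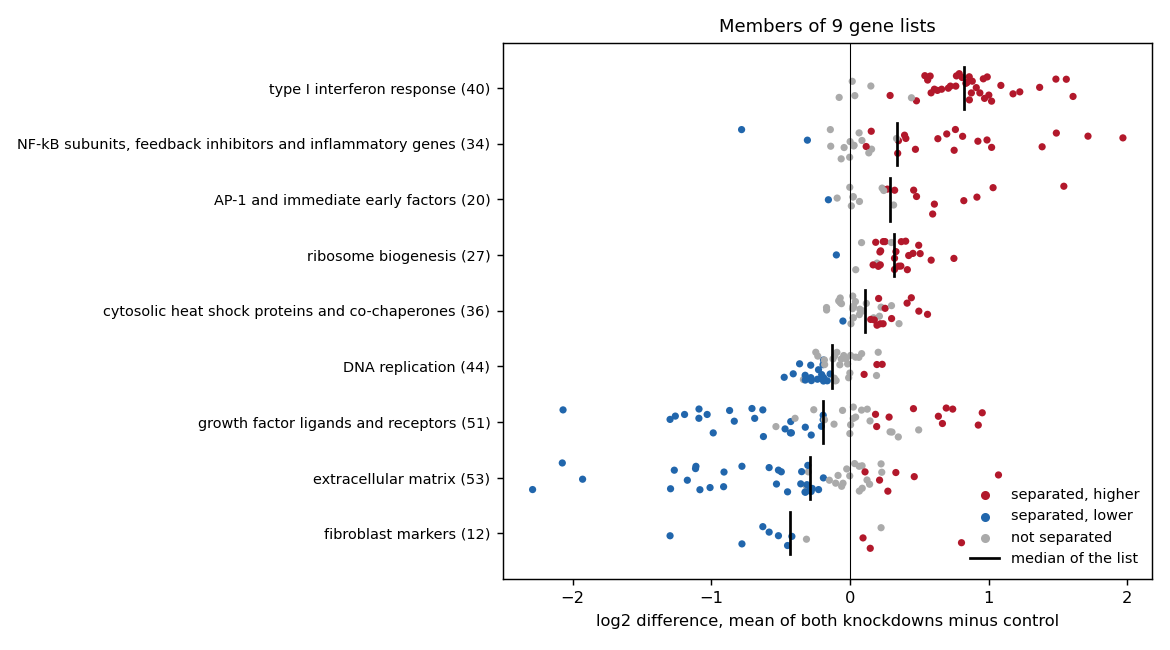
Each point is 1 gene of 9 lists, plotted by the log2 difference of the mean of both knockdowns from control; red and blue points were separated higher and lower, grey points were not, and a black bar marks the median of the list. The interferon genes crowd around a median of 0.82, the heat shock protein genes around 0.11, and the matrix genes reach from -2.29 to 1.07 with a median of -0.29.

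The knockdowns were then compared with each other among the separated genes. Separation and size were judged on the same knockdown arrays, so the counts below describe the separated genes and test nothing about them as a set. Limma called 4863 of all genes between RPA1 and HSF1 shRNA (24.4%). Of the 2536 genes separated higher, 633 differed (25%), with RPA1 shRNA farther from control for 528 of them and HSF1 shRNA for 105. Of the 1698 separated lower, 654 differed (38.5%), with RPA1 shRNA farther for 593 and HSF1 shRNA for 61. Among those at least 1.5-fold lower in both, 71 of 139 differed (51.1%), and RPA1 shRNA was farther in 67 of them. RPA1 replicate 3 mattered to these numbers: without it 938 of the higher and 820 of the lower separated genes differed, with RPA1 shRNA farther for 737 and 719. Leaving out RPA1 replicate 1 took all calls between the knockdowns from 4863 to 3228. Under quantile normalization, median centring and cyclic loess, RPA1 shRNA was farther for 573, 555 and 584 of the higher and 704, 712 and 729 of the lower genes.

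**Figure D5:**
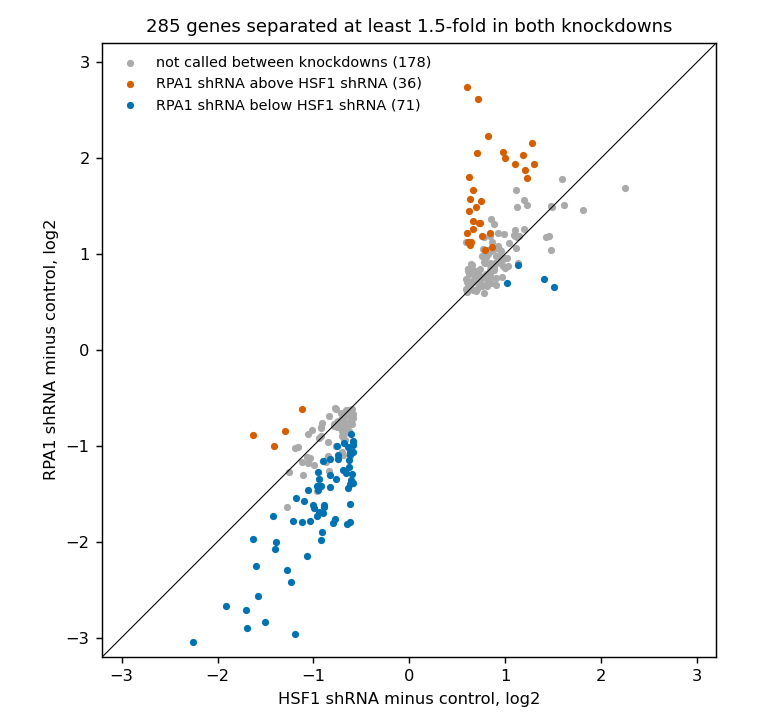
Each point is 1 of the 285 genes separated at least 1.5-fold in both knockdowns, with the HSF1 difference from control on the x axis and the RPA1 difference on the y axis, both log2; colours mark genes that limma called between the knockdowns. Both axes use the same 3 control arrays, so the shared sign of the points is set by the rule; most coloured points lie farther from 0 on the RPA1 axis.

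The genes with the widest gap in favour of RPA1 shRNA were of several kinds. 1700007K13Rik, an uncharacterised transcript, measured 7.32, 7.24 and 7.47 in control arrays, 7.92, 7.73 and 7.68 with HSF1 shRNA and 11.47, 11.62 and 10.48 with RPA1 shRNA, a gap of 3.42 ± 0.24 between the knockdowns. Cd80, a costimulatory ligand of T cells, lay 2.13 ± 0.24 higher with RPA1 shRNA, though a second probe set of Cd80 was not separated. With HSF1 shRNA alone, the difference from control did not pass for 1700007K13Rik (0.43 ± 0.24), Ces2e (0.45 ± 0.25), Cd80 (0.60 ± 0.24) and Tnfrsf18 (0.13 ± 0.24), with limma's adjusted p of 0.29, 0.29, 0.12 and 0.78. Gpnmb, a lysosomal glycoprotein, lay 1.89 ± 0.21 higher, Ces2e, a carboxylesterase, 2.66 ± 0.25 and Tnfrsf18, a TNF receptor, 1.64 ± 0.24. Among decreases, Gpm6a, a neuronal membrane glycoprotein, and Cyp39a1, a sterol hydroxylase, lay 1.67 ± 0.11 and 1.52 ± 0.10 lower with RPA1 shRNA.

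Fewer genes were moved farther by HSF1 shRNA. Nos2, the inducible nitric oxide synthase, measured 8.14, 8.15 and 8.30 in control arrays, 9.52, 9.39 and 9.26 with HSF1 shRNA and 8.55, 8.39 and 8.53 with RPA1 shRNA. Uchl1, a ubiquitin hydrolase, rose by 1.17 ± 0.09 with HSF1 shRNA and 0.42 ± 0.09 with RPA1 shRNA. Ctdsp2, a phosphatase of the RNA polymerase II tail, measured 12.22, 12.16 and 12.08 in control arrays, 10.58, 10.57 and 10.39 with HSF1 shRNA and 11.27 in all 3 RPA1 arrays. Arhgef2, a guanine exchange factor for RHOA, lay 0.67 ± 0.06 lower with HSF1 shRNA than with RPA1 shRNA, and N4bp2 0.91 ± 0.09 lower.

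Whole lists parted the knockdowns as well. Over all genes the direct test called 24.4%, 1935 higher and 2928 lower with RPA1 than with HSF1 shRNA. After median centring that split was 2672 and 2426. The direct counts of the lists were not repeated under the other scalings. Of 31 p53 target genes, 13 were separated higher and 2 lower and 21 rose and 2 fell, but 23 lay higher with RPA1 than with HSF1 shRNA in the direct test; the median was 0.11 with HSF1 shRNA and 0.88 with RPA1 shRNA. With 1 mean for all 6 knockdown arrays, 4 rose. Mdm2, the ubiquitin ligase that restrains p53, measured 10.69, 10.59 and 10.56 in control arrays, 11.07, 11.03 and 11.09 with HSF1 shRNA and 12.45, 12.49 and 12.09 with RPA1 shRNA. Sesn1 and Ddb2, also p53 targets, fell by 0.93 ± 0.09 and 0.54 ± 0.11. Of 30 sterol and fatty acid synthesis genes, 2 were separated each way and 26 lay lower with RPA1 than with HSF1 shRNA, with medians of 0.14 and -0.51 for HSF1 and RPA1 shRNA. The pooled test gave 10 that fell there, 6 without control replicate 2, 16 without RPA1 replicate 3 and 0 with 1 mean for all 6 knockdown arrays. Of 25 contractile and SRF or YAP target genes, 8 were separated higher and 1 lower, and 9 rose and 1 fell. Without RPA1 replicate 3, 14 rose, and with 1 mean for all 6 knockdown arrays 3 rose and 0 fell. In the direct test 15 lay higher with RPA1 than with HSF1 shRNA. Ankrd1, a YAP target, rose by 0.69 ± 0.05 with HSF1 shRNA and 1.49 ± 0.05 with RPA1 shRNA.

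The edge of the rule was thin. Laptm4b and Myl6b were the genes separated higher by the least and Tbx6 and Zkscan8 those separated lower by the least: in Laptm4b the lowest knockdown array and the highest control array were both 11.38 after rounding. Just outside lay 1810065E05Rik and 2210010C04Rik on the higher side and 1700017G19Rik and 4921524L21Rik on the lower side, dim transcripts whose nearest arrays met at 5.48, 6.26, 5.85 and 5.61. Among the 12147 probe sets with no listed gene, 404 were separated higher (3.33%) and 888 lower (7.31%).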

How the data were processed

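Gene expression was measured on 9 arrays, 3 per group. The authors' deposited values are log2 signals, 1 per probe set and array; the submitters' processing notes name RMA and Partek 6.5. The log base is not given in the sources used here and was inferred from the range of the values. Of 35557 rows, 21789 had 1 gene symbol in the platform annotation, 1621 had several and 12147 were not listed. Where a gene had several rows (999 genes), the brightest by mean signal was used, giving 19938 genes with no filter on dim ones. R 4.3.3 and limma 3.58.1 fitted 1 mean per group to all 9 arrays (6 residual and 3.51 prior degrees of freedom), with the mean of both knockdowns minus control and RPA1 minus HSF1 shRNA as contrasts, Benjamini-Hochberg adjustment over all genes and a two-sided threshold of 0.05. Simulated data with known changes were used to test the fit. With 3 arrays per group, their number sets the precision.

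Genes named by rule were the hairpin target, the 12 separated genes with the largest shared change each way, up to 4 separated members per list and direction, 5 genes per direction with the largest difference between the knockdowns, and the 2 genes each side of the limit of separation. Other genes, and list members beyond those 4, were named after their values were seen. Members and lists were chosen with earlier results of these data known. Alternatives were the replicate number as a block, quantile, median and cyclic loess scaling, a filter on dim genes, the mean of all rows, trend and robust moderation, array weights, 1 mean for the 6 knockdown arrays, and leaving out each array. The main fit did not pair the arrays by replicate number. Promoter and microRNA sequences are from RefSeq, GRCm38.p6, matched by symbol.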

Additional observations from a re-analysis of the deposited data

Results flagged for a closer look

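These genes stood among the leading shared changes or among the separated genes with the widest gap between the knockdowns, and the change differed between RPA1 and HSF1 shRNA by limma's direct test (adjusted p under 0.05 over all genes). The genes were chosen on the same knockdown arrays, so the gaps describe them. Values are RPA1 minus HSF1 shRNA, log2, each with 3 arrays per knockdown.

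Among genes separated higher, RPA1 shRNA went farther for U90926 (0.65), Ccl20 (0.87), H2bc4 (0.57), Fosl1 (0.67), 1700007K13Rik (3.42), Ces2e (2.66), Cd80 (2.13), Gpnmb (1.89) and Tnfrsf18 (1.64). HSF1 shRNA went farther for Nos2 (-0.90), Lncenc1 (-0.85), Uchl1 (-0.75), Fgl1 (-0.75) and Atp6v0a4 (-0.72). RPA1 replicate 3 lay closest to control for 1700007K13Rik, Ces2e, Cd80, Gpnmb, Tnfrsf18 and Ccl20, with 1700007K13Rik at 10.48 beside 11.47 and 11.62.

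Among genes separated lower, RPA1 shRNA went farther for Sncaip (-0.79), Islr (-0.75), Plxna4 (-1.0), Lrrn4 (-1.20), Slc44a5 (-0.34), Abi3bp (-0.65), Ptn (-0.99), Stk26 (-1.33), Adcyap1r1 (-0.30), C1qtnf7 (-0.68), Tgm2 (-0.61), Rpa1 itself (-1.94), Fmod (-1.78), Gpm6a (-1.67), Ccdc80 (-1.66) and Cyp39a1 (-1.52). HSF1 shRNA went farther for N4bp2 (0.91), Ctdsp2 (0.75), Slc6a9 (0.68), Entpd5 (0.67) and Arhgef2 (0.67).

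For 9 of these genes 1 knockdown alone did not pass against control. With HSF1 shRNA limma's adjusted p was 0.29 for 1700007K13Rik, 0.29 for Ces2e, 0.12 for Cd80, 0.78 for Tnfrsf18, 0.27 for Rpa1, 0.38 for Ccdc80 and 0.27 for Cyp39a1. With RPA1 shRNA it was 0.10 for Fgl1 and 0.074 for N4bp2.

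A few of these rested on single arrays. Ccdc80 lost its call without RPA1 replicate 1 (-1.38, adjusted p = 0.057 by limma), with RPA1 arrays at 8.12, 8.03 and 9.87. H2bc4 lost it without HSF1 replicate 1 (adjusted p = 0.054) and U90926 without HSF1 replicate 2 (adjusted p = 0.052). Slc44a5 lost it with the replicate block, after median centring, and without control replicate 2, each HSF1 replicate, and RPA1 replicate 1 or 2 (adjusted p 0.053 to 0.14), and Adcyap1r1 without control replicate 1, HSF1 replicate 1 or 2, or RPA1 replicate 1 (adjusted p 0.052 to 0.12).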

How the results depend on the processing

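For the 239 genes named by rule or in the text, no called pooled difference changed sign under the alternatives run: 4070 comparisons stayed on their side of the threshold, 139 were no longer past it and 50 newly past it. Of the 139, 51 came from the fit with 1 mean for the 6 knockdown arrays and 15, 18 and 19 from leaving out control replicate 1, 2 or 3. Genes whose call was lost without some single array were Ago2, Asf1b, Bard1, Brca2, Ccdc80, Ckm, Erap1, Fasn, Fen1, Glb1, Hsf2, Map2, Mir15a, Mir301, Myl6b, Orc2, Pecam1, Psmb8, Psme2, Rfc4, Saa3, Sema3d, Sema4b, Sema6b, Tnrc6b and Xrcc1.

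The pooled count of 4865 moved to 7440 with array weights and to 2326 with 1 mean for the 6 knockdown arrays, and ranged from 3370 (without control replicate 3) to 6343 (without RPA1 replicate 3) when 1 array was left out. The count between the knockdowns, 4863, moved to 7926 with array weights and ranged from 3228 to 6539. The separated count, 4234, became 285 with a 1.5-fold and 58 with a 2-fold minimum, and ranged from 4463 to 5492 with 1 array left out, where fewer arrays make separation easier. For calls between the knockdowns the split of higher to lower went from 1935 and 2928 to 2520 and 2669 (quantile), 2672 and 2426 (median centring) and 2503 and 2645 (cyclic loess). The cause of these shifts was not tested.

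With the replicate number as a block, 4541 genes passed in the pooled contrast and 4414 between the knockdowns. Deviations of same-numbered arrays correlated between -0.159 and 0.093, those of other pairs between -0.163 and 0.163. The ranges overlapped, but correlations over all genes cannot show a pairing limited to some genes or groups. What the numbers stand for was not tested.

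Signal sets the floor: of the dimmest of 4 equal classes of genes, 4.03% were separated higher and 1.08% lower. Probe sets of 1 gene can disagree: a further probe set of Cd80, Hk1, Ago2, Fdft1, Tead1, Bard1 and Hspa8 was not separated, that of Hk1 with the opposite sign (0.202).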

Other observations

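A group of Wnt genes, put together after the values were seen, leaned down. Of 50 genes for Wnt ligands, receptors and secreted regulators, 17 were separated lower and 1 higher, 17 fell and 4 rose, with a median of -0.01, and 29 did not pass the test. Fzd4, a Wnt and norrin receptor, measured 10.06, 10.20 and 10.12 in control arrays, 9.02, 8.93 and 8.78 with HSF1 shRNA and 8.37, 8.44 and 8.22 with RPA1 shRNA. Lgr5 and Rspo1, a receptor and a ligand of the R-spondin system that strengthens Wnt signals, fell by 1.31 ± 0.08 and 1.1 ± 0.06, and the antagonist Sfrp4 fell by 1.23 ± 0.17. Axin2, a common readout of Wnt signalling, differed by -0.03 ± 0.05 and did not pass. Of 25 genes known as outputs and feedback of the ERK pathway, also put together after the values were seen, 15 were separated higher and 1 lower, 18 rose and 1 fell, and the median was 0.46. Dusp6, a phosphatase of ERK, measured 10.55, 10.72 and 10.68 in control arrays, 11.42, 11.33 and 11.35 with HSF1 shRNA and 11.22, 11.19 and 11.53 with RPA1 shRNA. Etv4, a transcription factor of the ETS family, and Ccnd1, the cyclin D1 gene, rose by 0.88 ± 0.09 and 0.72 ± 0.07, while Dusp5 differed by 0.17 ± 0.12 and did not pass. Outside that group, the phosphatase gene Dusp1 rose by 1.01 ± 0.11 and the cell cycle inhibitor gene Cdkn1b fell by 0.69 ± 0.06.

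Of 296 microRNA genes on the array, 26 were separated lower (8.78%, against 8.52% of all genes) and 2 higher (0.676%, against 12.7%). Their median level was 6.25, 6.23 and 6.33 in the control arrays. That lies within the dimmest of the 4 equal classes of genes, of which 1.08% were separated lower and 4.03% higher. The cause of the differing shares was not tested. The lower ones at 1.5-fold or more in both knockdowns included pairs that share a seed, bases 2 to 8 of the mature microRNA, shown in capitals in the RefSeq sequences. These genes were chosen after their values were seen.
mmu-miR-15a-5p: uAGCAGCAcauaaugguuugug
mmu-miR-15b-5p: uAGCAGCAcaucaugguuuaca
mmu-miR-130a-3p: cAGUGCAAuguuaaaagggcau
mmu-miR-301a-3p: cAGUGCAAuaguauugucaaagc
Mir15a measured 8.96, 9.09 and 9.25 in control arrays, 8.61, 8.61 and 7.83 with HSF1 shRNA and 8.15, 8.26 and 8.63 with RPA1 shRNA. Mir15b, Mir130a and Mir301 fell by 0.69 ± 0.15, 0.77 ± 0.16 and 0.63 ± 0.17. The probe sets read the gene region and not the mature microRNA. Mir15b lies inside Smc4, which differed by -0.22 ± 0.09, and Mir301 inside Ska2, which differed by -0.15 ± 0.05. Neither of these hosts passed the test, though Ska2 passed under quantile normalization, median centring and cyclic loess. Mir15a lies inside Dleu2, whose value is not given here. Mir99a, also separated at 1.5-fold or more, shares no seed with these microRNAs. Mir15a lost its call without control replicate 2 or 3 (limma adjusted p = 0.05 and 0.065), and Mir301 without control replicate 2 or 3 or RPA1 replicate 1 (0.11, 0.099 and 0.05).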
